A study of Mus musculus with 4 samples.

Results

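The interval that holds Fgfbp3, Btaf1 and Ide on mouse chromosome 19 was described in H3K27ac HiChIP counts. Such a count measures how often 2 chromatin segments are ligated to each other in chromatin selected for this mark. Members were all pairs of anchors with at least 1 anchor overlapping chr19:36800000-37500000 (GRCm38), which gave 2504 of 1513030 pairs and 41 of 56562 anchors. An anchor is a stretch of chromatin between DpnII sites, and its count here is the sum over all pairs that use it. A pair thus enters the counts of both its anchors, so anchors that contact each other share counts. The interval was chosen because of its difference between the strains in these same counts, so that difference is given as a description with no test.

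The study profiled mouse embryonic stem cells of 2 inbred strains, grown in serum with LIF, the MEK inhibitor PD0325901 and the GSK3 inhibitor CHIR99021. B6 stands for strain and genotype C57BL/6J, with line 4-1 as replicate 1 and line 5-1 as replicate 2. D2 stands for strain and genotype DBA/2J, with line 2-9 as replicate 1 and line 5-5 as replicate 2. The strains differed in genotype and not in treatment, each line gave 1 library, and a replicate is therefore a line. Library totals were 2908329 and 2800847 counts in B6 and 2767882 and 2944258 in D2, and CPM below is a count scaled by these totals to 1 common library size. D2 replicate 1 is named with 10cyc where the other 3 have 8cyc, so within D2 the line and this mark cannot be told apart. Of 10 embryonic stem cell genes, 8 had an anchor over a start site, with 4.77 to 17.3 CPM per kb of anchor (Nanog the highest). Of 12 genes of other lineages, 8 had one, with 1.72 to 11.2 CPM per kb (Neurog1 the highest).

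Btaf1 is an ATPase that takes the TATA-binding protein off DNA. Fgfbp3 is a secreted protein that binds fibroblast growth factors, and Ide is a zinc metalloprotease that degrades insulin and other small peptides. H3K27ac marks active promoters and enhancers. A copy-number variant that includes Ide and Fgfbp3 has been described as segregating among C57BL/6J mice, which limits 2 B6 lines as a model of the strain. DNA copies, acetylation and contact frequency all enter a HiChIP count and cannot be told apart in these files, nor can fewer cells and less signal per cell. The counts were also made on a C57BL/6J-based build, so how well DBA/2J reads map cannot be told apart from strain.

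The start sites of the 3 genes are shown because the anchors over them carry the most counts of the region that differs. Fgfbp3 lies on the minus strand and Btaf1 on the plus strand, with starts in neighbouring anchors. Each sequence below runs 5′ to 3′ from 250 bases before to 50 bases after the RefSeq start (GRCm38.p6), and capitals mark matches to 7 searched motifs on either strand.
Fgfbp3, chr19:36919550-36919849, minus strand: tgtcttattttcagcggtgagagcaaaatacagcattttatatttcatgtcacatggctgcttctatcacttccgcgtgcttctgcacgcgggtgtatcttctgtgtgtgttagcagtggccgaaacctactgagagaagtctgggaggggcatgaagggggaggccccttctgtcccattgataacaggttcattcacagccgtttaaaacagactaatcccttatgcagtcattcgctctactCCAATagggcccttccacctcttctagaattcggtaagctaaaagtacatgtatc
Btaf1, chr19:36925829-36926128, plus strand: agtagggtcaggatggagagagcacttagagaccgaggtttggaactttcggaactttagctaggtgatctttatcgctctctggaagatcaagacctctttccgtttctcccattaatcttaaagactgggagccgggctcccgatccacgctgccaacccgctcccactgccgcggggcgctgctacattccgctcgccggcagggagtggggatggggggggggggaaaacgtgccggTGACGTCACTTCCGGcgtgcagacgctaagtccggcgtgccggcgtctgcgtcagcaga
Ide, positions 158360-158659 of the fix patch described next, minus strand: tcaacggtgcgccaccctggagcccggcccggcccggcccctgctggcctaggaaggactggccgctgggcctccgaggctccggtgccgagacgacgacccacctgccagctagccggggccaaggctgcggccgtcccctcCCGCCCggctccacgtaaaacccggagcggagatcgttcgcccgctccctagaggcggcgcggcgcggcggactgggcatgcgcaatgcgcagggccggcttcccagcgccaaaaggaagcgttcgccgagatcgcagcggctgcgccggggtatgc
The motifs were the GC box GGGCGG, the CCAAT box CCAAT, NRF1, ETS CCGGAAG, YY1 AAGATGGC, the E box CACGTG and CRE TGACGTCA. In Btaf1 the CRE and the reverse ETS match stood side by side without overlap, in Fgfbp3 there was 1 CCAAT, and in Ide there was 1 reverse GC box. Among 32851 RefSeq promoters of the same length, 1.79% held CRE, 8.86% ETS, 37.4% CCAAT, 35.7% the GC box, 0.971% NRF1, 2.75% YY1 and 7.15% the E box. GC content was 46.7% in Fgfbp3, 60% in Btaf1 and 74% in Ide, and the CpG count was 9, 25 and 39. The median promoter had 7 CpG.

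The start of Ide is not on chromosome 19 of this build. RefSeq aligned 97% of its Ide transcript there and marked it as partial, and GENCODE M21 tagged the 5′ end of the coding Ide transcript as not found. A fix patch for chromosome 19, made from C57BL/6J, carries Ide over 93.9 kb without that mark. Exact matches of 40 bases placed the patch on chromosome 19 except for its positions 153119-164128, an 11 kb stretch that holds the Ide start at position 158409. None of the 261 stretches of 40 bases in the Ide sequence above occurred on chromosome 19. The matches on its sides met at about chr19:37357366, inside the anchor chr19:37332139-37358432. That anchor is called the Ide anchor below. Whether the build used for counting held the patch is not given in the sources used here.

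Over the whole interval, B6 carried more counts than D2, and B6 replicate 2 more than B6 replicate 1. The libraries held 6331 and 7586 counts of it in B6 against 4354 and 5108 in D2, or 0.218% and 0.271% of the library against 0.157% and 0.173%. In CPM these were 2177 and 2708 in B6 against 1573 and 1735 in D2, so both D2 libraries lay below both B6 libraries. The means were 2443 ± 376 in B6 and 1654 ± 114 in D2 (SD, n = 2 each), a log2 ratio of D2 over B6 of -0.56. The ratio of B6 replicate 2 over replicate 1 was 1.24-fold, with an exact 95% interval of 1.20 to 1.29 that covers counting error only. Among 1546 windows of 700 kb with at least 2000 counts on the 19 autosomes, 8 had a difference between the B6 lines at least that large, and 101 had a D2 over B6 ratio as low or lower.

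The difference was largest in 2 stretches, which are called blocks here. A block is a run of neighbouring anchors whose mean B6 CPM was at least 1.5-fold the mean D2 CPM. The Fgfbp3-Btaf1 block, chr19:36909089-36971528, had 4 anchors over 62.4 kb, and the Ide block, chr19:37232548-37367433, had 12 anchors over 134.9 kb. A 261 kb middle with the 3′ part of Btaf1, Cpeb3 and March5 separated them. The blocks were drawn from the values, and no test was made of them. The weakest anchor inside had a log2 ratio of -0.68 and the strongest outside one of -0.50.

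**Figure D1:**
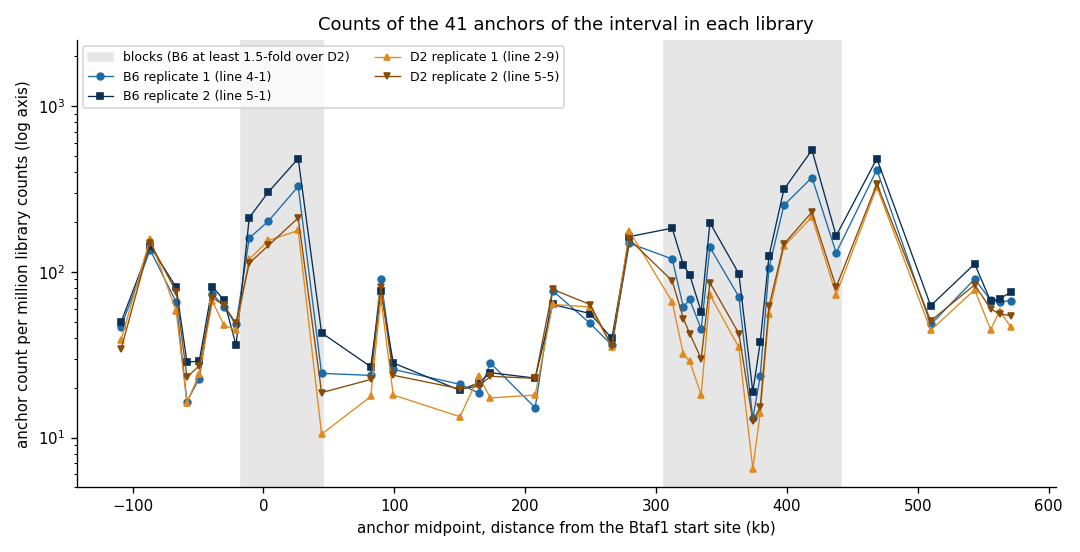
CPM (log axis) of each of the 41 anchors against its distance from the Btaf1 start in kb, 1 symbol and line per library, with the blocks in grey. In the blocks both D2 libraries lie under both B6 libraries and B6 replicate 2 is the highest; in the middle the 4 libraries cross.

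Left of the blocks lie 8 anchors, 6 of them in Tnks2, a tankyrase that adds ADP-ribose to proteins, and CPM there overlapped between the strains at 5 of the 8. The first, chr19:36814185-36820496, had 46.8 and 50.0 in B6 against 39.0 and 34.3 in D2, with both D2 libraries lower. At the Tnks2 start, chr19:36830625-36848369, the CPM were 136 and 143 in B6 against 159 and 150.1 in D2, so both D2 libraries were higher. The next start-site anchor of Tnks2, chr19:36856016-36862822, had 65.7 and 80.7 in B6 against 57.8 and 75.7 in D2. In exons of Tnks2 the 4 libraries overlapped at 3 of the 4 anchors. There chr19:36865744-36869473 had 16.5 and 28.6 in B6 against 16.3 and 23.1 in D2, and here B6 replicate 2 was the highest. CPM at chr19:36876017-36878061 were 22.7 and 28.9 in B6 against 24.2 and 27.2 in D2. At chr19:36882732-36891321 they were 73.9 and 81.4 in B6 against 66.5 and 70.0 in D2, with both D2 libraries lower. The strains overlapped again at the last Tnks2 anchor. For chr19:36892557-36899293 the CPM were 61.5 and 67.5 in B6 against 47.7 and 62.8 in D2. The last anchor before the block, chr19:36902465-36907840, is intergenic and had 48.1 and 36.1 in B6 against 44.4 and 48.9 in D2, with B6 replicate 2 the lowest. The median log2 ratio of the 8 was -0.16.

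In the Fgfbp3-Btaf1 block all 4 anchors had both D2 libraries under both B6 libraries, and the ratio moved further from 0 from left to right. The anchor over the Fgfbp3 start, chr19:36909089-36921397, had 159.9 and 212 CPM in B6 against 119 and 113 in D2, means of 186 ± 37.2 against 116 ± 4.57 (SD, n = 2 each), a log2 ratio of -0.68. The anchor over the start of the protein-coding Btaf1 transcript is chr19:36922251-36937558 and had 203 and 303 CPM in B6 against 155 and 144 in D2, with means of 253 ± 71.4 against 149 ± 7.27 and a log2 ratio of -0.76. B6 replicate 2 stood above the other 3 libraries at both. The widest anchor of the block, chr19:36938375-36966930, holds the starts of 2 retained-intron transcripts of Btaf1 and is called the Btaf1 anchor below. Its CPM were 328 and 483 in B6 against 178 and 212 in D2, means 405 ± 109 against 195 ± 23.9, and its log2 ratio was -1.06. The smallest, chr19:36969519-36971528, covers an exon of Btaf1 and had 24.4 and 42.8 CPM in B6 against 10.5 and 18.7 in D2, means of 33.6 ± 13.0 against 14.6 ± 5.80 and a log2 ratio of -1.21, the lowest of the interval.

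The middle held 11 anchors, with a median log2 ratio of -0.09 and a range from -0.37 to 0.25. In the 3′ part of Btaf1, chr19:37006705-37009473 had 23.7 and 26.8 CPM in B6 against 17.7 and 22.4 in D2, with both D2 libraries lower by little. The neighbouring chr19:37010761-37020888 had 90.4 and 77.1 in B6 against 69.4 and 81.2 in D2, and here the strains overlapped. Cpeb3 encodes an RNA-binding protein that controls translation, and 8 anchors lay in it, some with a small RNA gene. Both D2 libraries were below both B6 libraries at chr19:37024213-37026354, with 25.8 and 28.2 in B6 against 18.1 and 23.8 in D2, and at chr19:37097119-37101803, with 28.2 and 24.6 in B6 against 17.3 and 23.4 in D2. The strains overlapped at the remaining anchors with few counts. CPM were 21 and 19.3 in B6 against 13.4 and 19.7 in D2 at chr19:37072216-37080368. They were 18.6 and 21.4 in B6 against 23.5 and 20.4 in D2 at chr19:37089294-37092191, and 15.1 and 22.9 in B6 against 18.1 and 22.8 in D2 at chr19:37131586-37135976. The last 4 anchors before the Ide block carried more counts and ratios near or above 0. At chr19:37142106-37152078 the CPM were 77.0 and 63.6 in B6 against 63.6 and 78.5 in D2. Over a Cpeb3 start, chr19:37171908-37179628, they were 48.8 and 56.1 in B6 against 61.4 and 63.5 in D2, so both D2 libraries were higher, with the highest log2 ratio of the interval at 0.25. The intronic chr19:37190795-37193972 had 36.1 and 39.6 in B6 against 35.4 and 35.7 in D2, where D2 lay just under B6. The last, chr19:37195731-37215756, holds starts of Cpeb3 and of March5, a ubiquitin ligase of the mitochondrial membrane, and had 149 and 163 in B6 against 176 and 157 in D2.

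All 12 anchors of the Ide block had both D2 libraries under both B6 libraries, with log2 ratios from -1.20 to -0.75 and a median of -1.03. Downstream of Ide, chr19:37232548-37244324 had 119.7 and 184 CPM in B6 against 66.1 and 88.3 in D2, and chr19:37245098-37248999 had 61.2 and 110.0 in B6 against 31.8 and 52.3 in D2. In both, B6 replicate 2 was more than 1.5-fold above B6 replicate 1. Then chr19:37249888-37253764 had 68.4 and 96.0 CPM in B6 against 28.9 and 42.5 in D2, and chr19:37259490-37261752 had 45.0 and 57.5 in B6 against 18.1 and 29.9 in D2. D2 replicate 1 was the lowest library at these 4 anchors. The Ide gene itself began with chr19:37262771-37271819, over its 3′ exons, at 141 and 198 CPM in B6 against 72.6 and 85.9 in D2. Over the starts of short Ide transcripts, chr19:37287779-37291038 had 70.8 and 97.5 in B6 against 35 and 42.5 in D2, chr19:37304056-37307434 had 23.4 and 37.5 in B6 against 14.1 and 15.3 in D2 and chr19:37309669-37315186 had 106 and 125 in B6 against 55.6 and 61.8 in D2. The anchor with the fewest counts of the interval, chr19:37298269-37301910, had 13.1 and 18.9 in B6 against 6.50 and 12.6 in D2, and it was the single block anchor not called in the fit across all anchors. The anchor at the annotated but incomplete start of coding Ide, chr19:37316724-37330987, had 252 and 315 CPM in B6 against 143 and 147 in D2, means of 283 ± 44.0 against 145 ± 3.08 (SD, n = 2 each) and a log2 ratio of -0.97. The Ide anchor, chr19:37332139-37358432, had the most counts of the block, 371 and 543 CPM in B6 against 214 and 229.6 in D2, with means of 457 ± 122 against 222 ± 10.9 and a log2 ratio of -1.04. The last, the intergenic chr19:37360141-37367433, had 130.3 and 165 in B6 against 73.0 and 80.8 in D2, so the shift held upstream of Ide as well.

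To the right, both D2 libraries were below both B6 libraries at 5 of 6 anchors, with smaller ratios (median log2 -0.34). The 50.9 kb anchor chr19:37369408-37420337 holds the start of Kif11, a mitotic kinesin, and had 413 and 483 CPM in B6 against 325 and 339.6 in D2, means of 448 ± 49.3 against 332 ± 10.2 and a log2 ratio of -0.43. The Hhex start, chr19:37432385-37439686, of a homeobox factor, had 48.1 and 62.5 in B6 against 44.4 and 50.6 in D2, where the strains overlapped. Beyond Hhex both D2 libraries were lower at every anchor of the interval, with a log2 ratio of -0.50 at the last one. There chr19:37463566-37475722 had 90.4 and 112 in B6 against 78.0 and 83.6 in D2, and chr19:37479102-37484641 had 67.4 and 66.4 in B6 against 44.8 and 59.8 in D2. The last, chr19:37485613-37491665 and chr19:37494470-37500466, had 66.0 and 68.9 in B6 against 58.2 and 55.7 in D2 and 67.0 and 75.3 in B6 against 46.2 and 54.3 in D2.

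The edges of the blocks are where the 1.5-fold rule on whole anchors was first or last met, so they fell in gaps between anchors. A count is summed over its anchor, so a change inside a wide anchor cannot be placed. The wide Kif11 anchor right of the Ide block also had both D2 libraries lower (log2 -0.43). At the start of the Fgfbp3-Btaf1 block the ratio went from 0.15 to -0.68 between chr19:36907840 and chr19:36909089. Its end fell in a 35.2 kb gap inside Btaf1, between chr19:36971528 and chr19:37006705. The Ide block began in a 16.8 kb gap between chr19:37215756 and chr19:37232548, and ended in a 1.98 kb gap between chr19:37367433 and chr19:37369408. Where the edges lie is shown by 60 bases of the plus strand around the outermost anchor ends (GRCm38), with the DpnII site GATC in capitals.
Fgfbp3-Btaf1 block start, chr19:36909061-36909120: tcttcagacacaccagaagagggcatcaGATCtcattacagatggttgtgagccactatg
Fgfbp3-Btaf1 block end, chr19:36971500-36971559: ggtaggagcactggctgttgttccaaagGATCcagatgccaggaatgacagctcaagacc
Ide block start, chr19:37232520-37232579: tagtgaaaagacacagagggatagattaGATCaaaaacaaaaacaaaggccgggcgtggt
Ide block end, chr19:37367405-37367464: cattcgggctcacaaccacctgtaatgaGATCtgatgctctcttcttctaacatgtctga
All 1639 anchors of chromosome 19 began and ended at such a site, so the edges follow the enzyme and cannot be read to the base. By the less strict rule that both D2 libraries be under both B6 libraries, the runs were chr19:36909089-37009473 with 5 anchors, chr19:37232548-37420337 with 13 and chr19:37463566-37512155 with 5. Of 6452 such runs in the genome, 120 were as long as 13 anchors and the longest had 96.

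**Figure D2:**
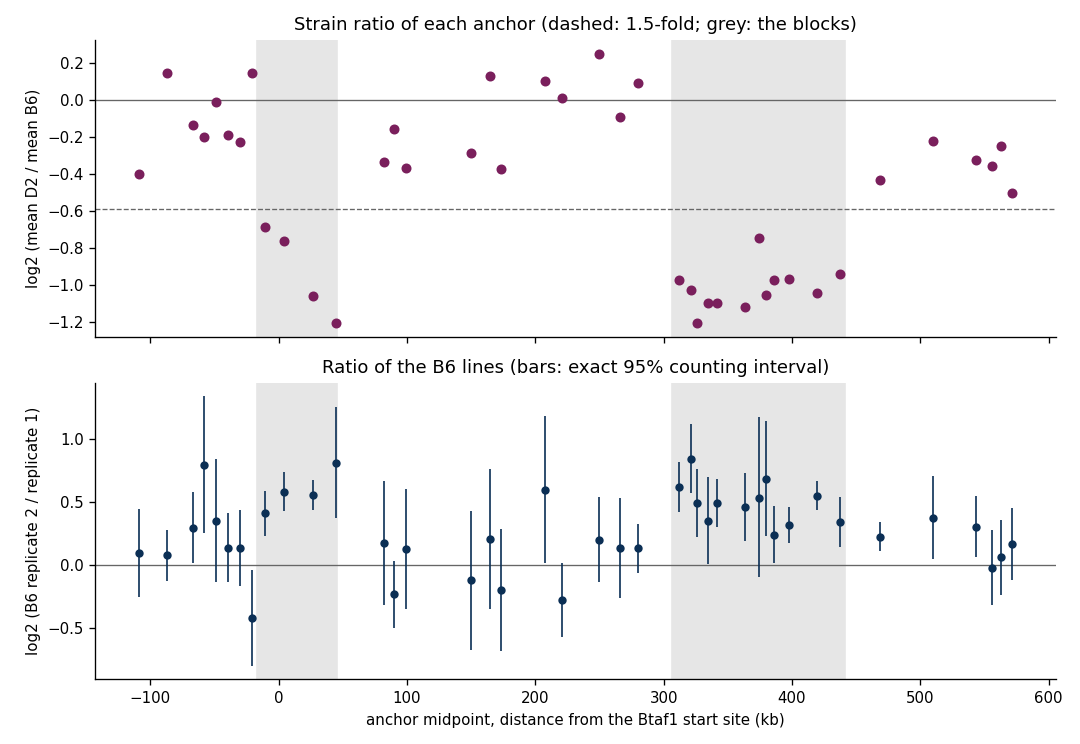
Upper panel, log2 ratio of the mean D2 over the mean B6 CPM of each anchor against distance from the Btaf1 start in kb, with the 1.5-fold line dashed and the blocks in grey. Lower panel, log2 ratio of B6 replicate 2 over replicate 1 with exact 95% counting intervals; all 16 block anchors lie above 0 and the middle scatters around it.

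In the edgeR quasi-likelihood fit across all anchors with at least 20 counts, all 41 anchors of the interval were tested. D2 was called lower at 15 of them and higher at none (Benjamini-Hochberg adjusted p below 0.05), where 7.08% of all tested anchors were called lower. The shares called higher and called either way were 2.67% and 9.75%. At an unadjusted p below 0.05, 19 were lower and 0 higher. DESeq2 called 11 lower, where it called 2.06% of all tested anchors lower, and 0 higher, or 17 and 0 unadjusted. All 15 lay in the blocks, 4 of 4 and 11 of 12 anchors. Both D2 libraries were under both B6 libraries at 27 of the 41, against 28% of all tested anchors, and over both at 2, against 21.5%. Of all tested anchors, 13.4% met the 1.5-fold rule of the blocks. Since the interval was chosen on this contrast, nothing is read from these shares. Without B6 replicate 2 the number of called anchors was 6.

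The B6 lines also differed from each other, with the largest medians in the block anchors. B6 replicate 2 had the higher CPM at all 16 block anchors, with a median log2 ratio over replicate 1 of 0.57 in the Fgfbp3-Btaf1 block and 0.49 in the Ide block. These anchors share the counts of the pairs that join them, so they are not separate observations. In the middle it was higher at 7 of 11 anchors, with a median of 0.13. It was also higher at 7 of 8 anchors of the left flank (median 0.14) and 5 of 6 of the right flank (median 0.20). The direction was therefore not confined to the blocks. Of all anchors with at least 100 B6 counts, 50.6% were higher in replicate 2. Among those with enough counts, 6 of 40 anchors of the interval were at least 1.5-fold higher in replicate 2, 4 of them in the blocks, against 1.36% of all such anchors. Against the D2 mean, the block anchors stood at a median of 1.68-fold in B6 replicate 1 (range 1.35 to 1.92) and 2.42-fold in replicate 2 (range 1.83 to 2.94). The CPM in excess of the D2 mean was larger in replicate 2 by a median factor of 2.16 (range 1.41 to 3.55). A high value in either line raised the B6 mean that chose the blocks, so these values are a description too. With 1 library a line they have no replicate check. The D2 lines were closer, with a median log2 ratio of replicate 2 over replicate 1 of 0.25 over the 16 anchors. Replicate 2 was the higher D2 line at 14 of the 16, a larger share than the 60.6% of all tested anchors.

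The largest difference was in the contacts between the blocks, which join anchors with midpoints 268 to 449 kb apart. The 47 observed pairs summed to 557 and 968 in B6 against 134 and 146 in D2. In CPM this was 192 and 346 in B6 against 48.4 and 49.6 in D2, means of 269 ± 109 against 49 ± 0.831 (SD, n = 2 each), a log2 ratio of -2.45. The D2 lines were nearly equal here and the B6 lines were not, with replicate 2 over replicate 1 at 1.80-fold (95% counting interval 1.62 to 2.01). Of 48 possible pairs, 22 had at least 20 counts, and their log2 ratios ran from -3.58 to -1.24. Both D2 libraries were under both B6 libraries in 21 of the 22. B6 replicate 2 was above replicate 1 in all 22, where 51.1% of all tested pairs were higher in replicate 2. The blocks were drawn from high B6 means, and a pair could reach 20 counts through B6 alone. Both numbers partly follow from this choice and are a description only. The contacts between the blocks are also part of the anchor counts of both blocks, so they are not a separate result. Neither D2 library had a count in 11 of the 47. By the deposited q-value of the loop caller, 31 and 40 of the 47 pairs were under 0.01 in B6 against 16 and 23 in D2.

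Contacts inside the blocks moved less. Within the Ide block counts were 896 and 1302 in B6 against 421 and 573 in D2, a log2 ratio of -1.16, and B6 replicate 2 was 1.51-fold (95% counting interval 1.38 to 1.64) over replicate 1. Within the Fgfbp3-Btaf1 block they were 291 and 381 in B6 against 221 and 225 in D2, with -0.60. Contacts to the flanks, which include partners outside the interval, depended on the side. From the Fgfbp3-Btaf1 block to the left they were 396 and 466 in B6 against 386 and 438 in D2 (log2 -0.07), and to the right, across the Ide block, 326 and 475 in B6 against 147 and 196 in D2 (log2 -1.23). With the Kif11 anchor alone the block had 154 and 227 in B6 against 47 and 74 in D2, with both D2 libraries below. From the Ide block to the right they were 1062 and 1173 in B6 against 685 and 770 in D2 (log2 -0.62). To the left the Ide block had 252 and 242 in B6 against 118 and 163 in D2, a log2 ratio of -0.82 with the B6 lines nearly equal in CPM.

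The middle, which lies between the blocks, showed smaller ratios. Its contacts with itself were 242 and 238 in B6 against 259 and 279 in D2, with D2 slightly higher (log2 0.16). With the Fgfbp3-Btaf1 block and the Ide block its log2 ratios were -0.31 and -0.31. To the right flank it had 245 and 161 in B6 against 264 and 299 in D2, with D2 higher (log2 0.47), a class picked out after its values were seen. There B6 replicate 2 was lower than replicate 1, at 0.682-fold (95% counting interval 0.556 to 0.836). Contacts from the left to the right flank, past all of these, were 195 and 135 in B6 against 146 and 170 in D2 (log2 -0.06), again with B6 replicate 2 the lowest.

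**Figure D3:**
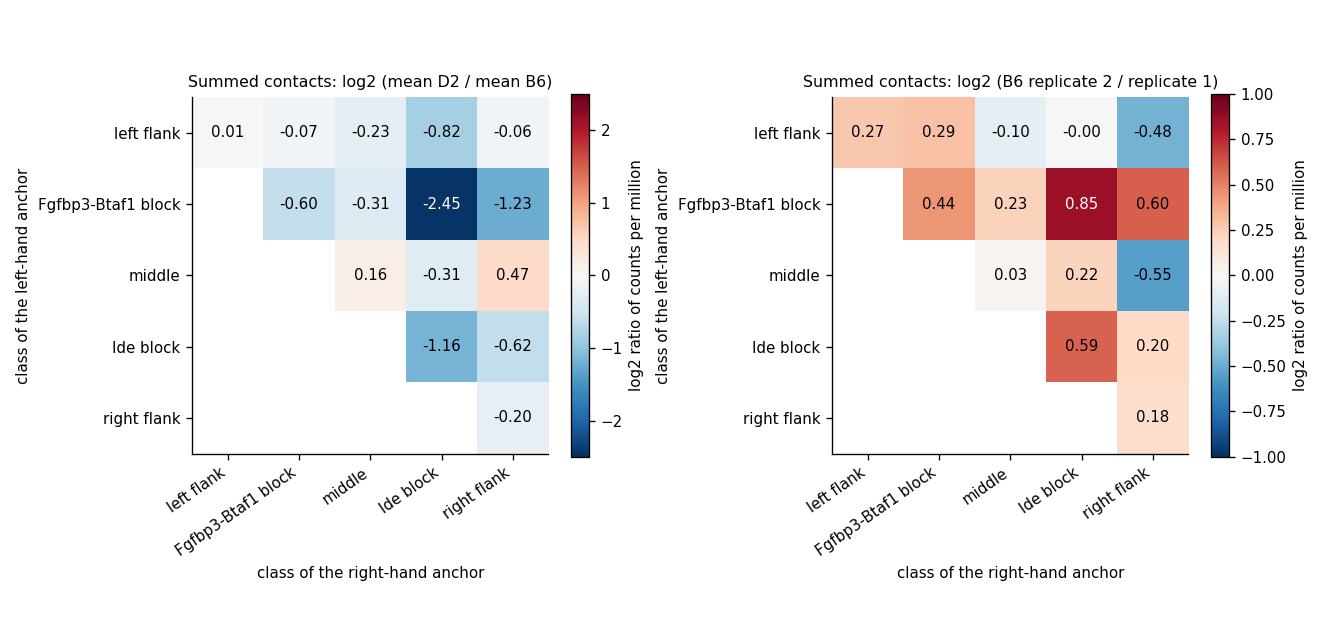
Log2 ratios of summed contacts by the class of the left-hand and right-hand anchor, D2 over B6 on the left and B6 replicate 2 over replicate 1 on the right, on different colour scales. The cell that joins the blocks has the extreme value in both, -2.45 and 0.85, and the cell from the middle to the right flank has the opposite sign in both.

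In the edgeR fit across all 108034 pairs with at least 20 counts, 225 pairs of the interval were tested and D2 was called lower in 35, where 0.957% of all tested pairs were called lower. None was called higher in D2. The shares called higher and called either way were 0.492% and 1.45%. At an unadjusted p below 0.05 there were 67 lower and 6 higher. DESeq2 called 8 lower, where it called 0.0518% of all tested pairs lower, and 0 higher, or 41 and 0 unadjusted. Of the 35, 19 joined the blocks, 13 lay within the Ide block and 3 joined the Fgfbp3-Btaf1 block to the Kif11 anchor. Both D2 libraries were under both B6 libraries in 97 of the 225, against 17.9% of all tested pairs. Without B6 replicate 2 the number of called pairs was 11, and without D2 replicate 1 it was 22.

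The pair of the Btaf1 anchor and the Ide anchor, 393 kb apart, held the most counts of those between the blocks. Its counts were 78 and 130 in B6 against 25 and 10 in D2, or 26.8 and 46.4 CPM in B6 against 9.03 and 3.40 in D2, means of 36.6 ± 13.9 against 6.21 ± 3.99 and a log2 ratio of -2.56. Among 114966 pairs 350 to 450 kb apart in the genome, it ranked 7 in B6 replicate 1, 1 in B6 replicate 2, 211 in D2 replicate 1 and 1282 in D2 replicate 2. These ranks use counts not scaled by anchor width, and wide anchors gather more counts. The Btaf1 and Ide anchors span 28555 and 26293 bases, against a median of 4272.5 over all tested anchors. Other pairs of start-site anchors behaved alike. The coding Btaf1 start and the Ide anchor had 35 and 86 in B6 against 12 and 10 in D2. The coding Btaf1 start with the incomplete Ide start had 28 and 35 in B6 against 4 and 10 in D2, and the Btaf1 anchor with that start had 47 and 68 in B6 against 7 and 12 in D2. All of these were lower in both D2 libraries. To the short Ide transcripts the counts were lower in number, as in the pair of the Btaf1 anchor and chr19:37309669-37315186 with 17 and 31 in B6 against 6 and 5 in D2.

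Seen from the Btaf1 anchor, contacts with the Ide block were 107 and 181 CPM in B6 against 26.7 and 23.1 in D2. Its contacts with the left flank were 50.2 and 65.0 CPM in B6 against 47.7 and 57.7 in D2, so the strains overlapped there. With the middle they were 43.0 and 51.1 CPM in B6 against 30.0 and 39.7 in D2, with both D2 libraries lower (log2 -0.43). With the right flank they were 51.9 and 87.8 CPM in B6 against 22.8 and 36.0 in D2. The Ide anchor had 50.9 and 99.6 CPM in B6 against 15.5 and 9.17 in D2 with the Fgfbp3-Btaf1 block, where D2 replicate 2 was the lowest. Its contacts with the middle were 32.3 and 41.4 CPM in B6 against 23.8 and 23.8 in D2 (log2 -0.63), and with the left flank 22.3 and 23.9 CPM in B6 against 11.6 and 17.3 in D2 (log2 -0.68), so D2 was lower in each of these as well. The share of all contacts of the Fgfbp3-Btaf1 block that went to the Ide block was 31.2% (Wilson 95% interval 29.0 to 33.3) and 38.2% (36.3 to 40.1) in B6 against 12.7% (10.8 to 14.8) and 12.1% (10.3 to 14.0) in D2. This share does not depend on the library total. Its intervals cover counting error only and do not measure the spread between lines, since each line gave 1 library. The blocks were drawn from these same counts, so the share is a description. From the Ide block the share was 17.5% and 23.3% in B6 and 7.98% and 7.15% in D2.

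**Figure D4:**
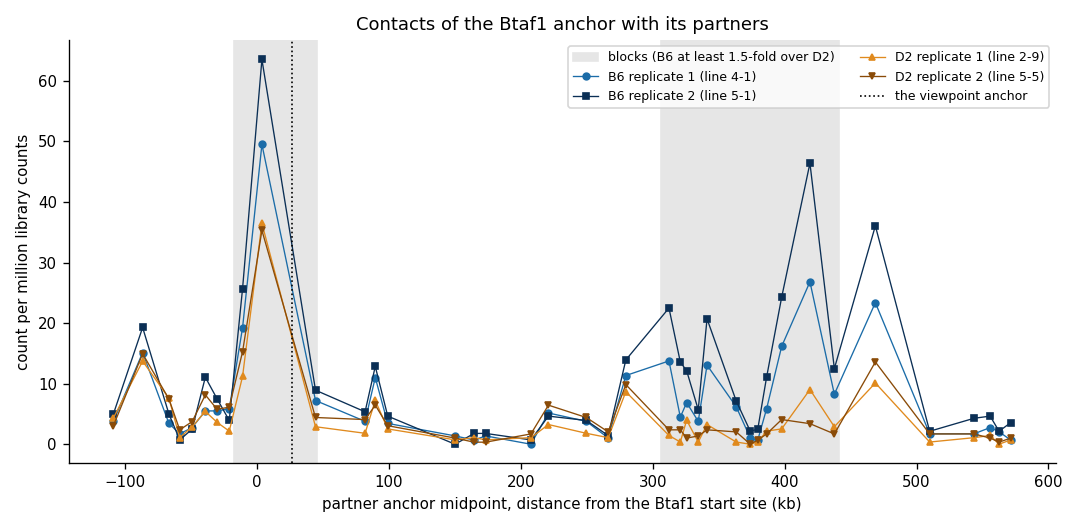
CPM of the Btaf1 anchor with each partner anchor of the interval, against the partner's distance from the Btaf1 start in kb, 1 symbol and line per library; the dotted line is the Btaf1 anchor and grey marks the blocks. In the middle the 4 libraries lie closer together, with the summed D2 contacts lower, and in the Ide block B6 replicate 2 is the highest and D2 the lowest, up to 46.4 CPM against 9.03 and 3.40 at the Ide anchor.

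Of the 10 pairs with the most counts in the interval, 8 joined anchors 14.7 to 71.0 kb apart, and the Btaf1 to Ide pair was among the other 2. The Ide anchor with the Kif11 anchor had 181 and 236 counts in B6 against 150 and 139 in D2 (log2 -0.53), and with the anchor of the incomplete Ide start 174 and 242 in B6 against 111 and 116 in D2 (log2 -0.88). At Btaf1 the strongest joined the coding Btaf1 start to the Btaf1 anchor, with 144 and 178 in B6 against 101 and 104 in D2 (log2 -0.65). B6 replicate 2 was the highest in each. For Fgfbp3 the strongest partner was the coding Btaf1 start, with 64 and 94 in B6 against 77 and 56 in D2, and here D2 replicate 1 was above B6 replicate 1 in CPM. The longest of the 10, 442 kb, joined the Btaf1 anchor to the Kif11 anchor with 68 and 101 in B6 against 28 and 40 in D2 (log2 -1.33). The remaining ones were lower in both D2 libraries in CPM. They were the Kif11 anchor with chr19:37360141-37367433, with 104 and 112 in B6 against 76 and 85 in D2, and with the incomplete Ide start, with 93 and 79 in B6 against 55 and 61 in D2. The Fgfbp3 anchor had 56 and 72 in B6 against 31 and 45 in D2 with the Btaf1 anchor, and the Ide anchor 61 and 76 in B6 against 23 and 43 in D2 with chr19:37360141-37367433.

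Along the chromosome, start-site anchors of neighbouring genes showed no such shift at most places. From left to right the log2 ratios of D2 over B6 were Pcgf5 (-0.07), Hectd2 (-0.07), Ppp1r3c (-0.02) and Tnks2 (0.06) before the blocks, and Cpeb3 (0.14) and March5 (0.10) between them. To the right they were Kif11 (-0.43), Hhex (-0.22), Exoc6 (0.10), Cyp26c1 (-0.72) and Cyp26a1 (-0.07), and Ankrd1 had no anchor over a start. All start-site anchors summed gave Fgfbp3 (-0.68), Btaf1 (-0.94) and Ide (-1.02). Cyp26c1, a retinoic acid hydroxylase gene, had 44.4 and 35 CPM in B6 against 21.7 and 26.5 in D2, low in D2 but with B6 replicate 1 above replicate 2, unlike the block anchors. Outside the interval, 35 tiles of 100 kb with at least 100 counts between 34 and 40 Mb had log2 ratios from -0.40 to 0.80, with a median of 0.017. The B6 lines differed there by -0.43 to 0.82. Among tiles starting from 37.5 to 38.4 Mb, both D2 libraries were lower at 37.6, 38 and 38.1 Mb (log2 -0.38, -0.40 and -0.25). Both were higher at 38.2, 38.3 and 38.4 Mb (log2 0.17, 0.69 and 0.44), and the strains overlapped in the rest.

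**Figure D5:**
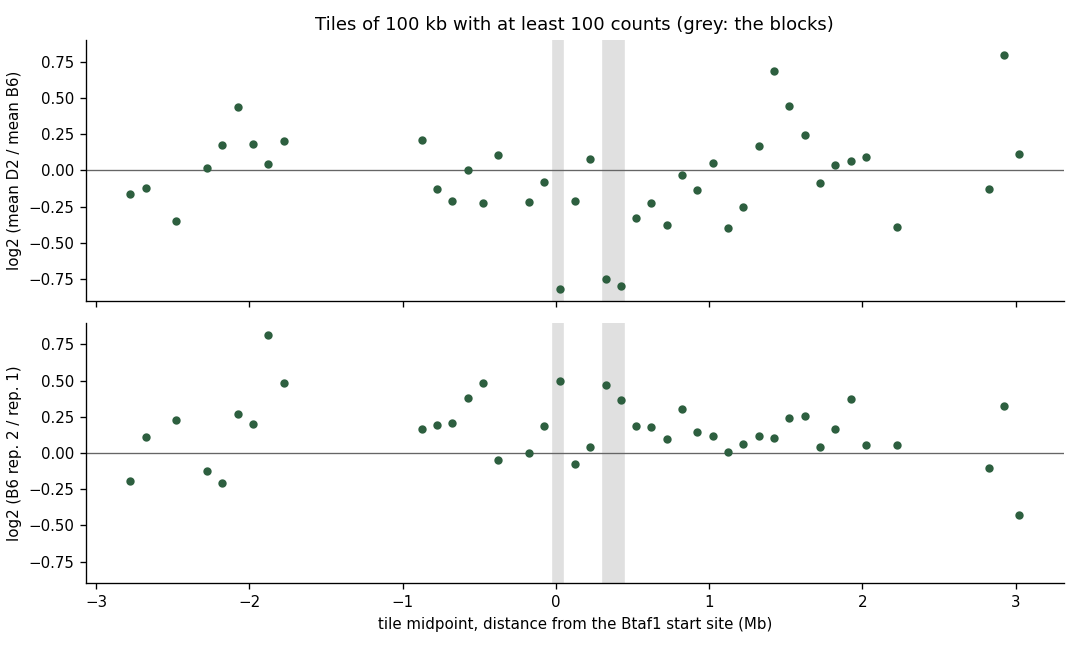
Log2 ratio of D2 over B6 (upper) and of B6 replicate 2 over replicate 1 (lower) in 100 kb tiles with at least 100 counts, against distance from the Btaf1 start in Mb, with the blocks in grey. The 3 tiles over the blocks are the lowest in the upper panel, while in the lower panel a tile outside reaches 0.82.

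Sequence features of the anchors, which the choice did not use, are given as medians. Median GC content was 40.5% in the Fgfbp3-Btaf1 block, 44.1% in the Ide block and 44.1% in the middle, against 45.4% over the anchors of chromosome 19. DpnII sites per kb were 2.30, 2.26 and 1.97, against 2.1. Soft-masked repeats made up 36.4%, 32.9% and 24.9% of an anchor, against 23.6%. The left and right flanks of the interval had 34.4% and 28.6%, so a high share was not particular to the blocks. The build had no unresolved base in the interval. Start sites lay in 9 of the 16 block anchors and in 9 of the other 25.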

How the data were processed

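HiChIP for H3K27ac was made from 4 libraries of mouse embryonic stem cell lines, cut with DpnII after fixing in 1% formaldehyde and read as 75 bp pairs, per the labels' protocols. The deposited series table holds raw read-pair counts per pair of anchors. The submitters' processing notes name HiC-Pro 2.11.4, mm10 (GRCm38) and DESeq2 without saying which step used each. The deposited loop lists of single libraries hold a value from 0 to 1, taken here as the caller's q-value, which the file headers do not define. The caller was not given in the sources used here.

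Counts were summed per anchor and scaled by library totals. No count column lacked a sample. Pairs and anchors with at least 20 counts over the 4 libraries were fitted genome-wide with edgeR 4.0.16 (R 4.3.3). The fit used the quasi-likelihood test, TMM factors and Benjamini-Hochberg adjustment, with DESeq2 1.42.0 as an alternative. It was also run on simulated data, with an outcome that is not reported here. An exact permutation test of 2 against 2 cannot give a p below 0.333, so none was used. Intervals (Wilson, or exact binomial for ratios of counts) are 95% and cover counting error only, since each line gave 1 library. They take read pairs as independent molecules. Read pairs without molecular identifiers are not, so the intervals may be too narrow even for that error. Genes were named by GENCODE M21 and RefSeq, both on GRCm38. The interval, its blocks and the gene lists were chosen with earlier results of these data known. Named were the 3 genes with every anchor over their starts, their neighbours from Ankrd1 to Cyp26a1, the 10 pairs with the most counts, the pair with the most counts at each start-site anchor of the 3 genes, pairs joining start-site anchors of Btaf1 and Ide, and the ends of each run. All anchors of the interval are given. Alternatives changed the scaling, the count minimum, the tool, the fold, the tile and the libraries used.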

Additional observations from a re-analysis of the deposited data

How the results depend on the processing

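All 16 block anchors stayed below 0 (D2 over B6, log2) in every fit tried, with 6 to 16 of them called. The 35 called pairs, all lower in D2, became 8 with DESeq2, 13 with at least 10 counts and 22 with no minimum, and 11 to 39 when 1 library was left out. The 39, without D2 replicate 2, held 38 lower and 1 higher. The 15 called anchors became 6 to 18, the lowest without B6 replicate 2. Leaving out 1 library moved the Btaf1 to Ide pair between -3.43 and -2.02. The sum of contacts between the blocks moved between -2.82 and -1.97, and that from the middle to the right flank between 0.23 and 0.78. These last 2 sums were chosen after seeing the data. The log2 ratio of B6 replicate 1 over replicate 2 for the interval, -0.32, was -0.38 in pairs with both anchors inside it. No anchor of the interval differed 2-fold between the B6 lines (0), and 18 passed at the lowest fold tried, against 6 at 1.5-fold. The longest run with both D2 libraries lower, 187.8 kb, was 200 kb in 50 kb tiles, a length reached at each of the blocks. With chromosome 19 totals chr19:37298269-37301910 broke the 187.8 kb run into runs of 58.5 kb and 116.3 kb, with 6 anchors each. The cause of these changes was not tested.

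Anchors outside the blocks that were not called changed sign under some settings. With library totals and no TMM factors chr19:36876017-36878061 was at -0.0030. In pairs of at least 20 kb chr19:37131586-37135976 was at -0.011 and chr19:37190795-37193972 at 0.022. With 1 library left out, chr19:36856016-36862822 ran from -0.24 to 0.033, chr19:36865744-36869473 from -0.49 to 0.27, chr19:36876017-36878061 from -0.12 to 0.19 and chr19:36902465-36907840 from -0.034 to 0.42. Likewise chr19:37010761-37020888 ran from -0.25 to 0.010, chr19:37131586-37135976 from -0.12 to 0.44, chr19:37142106-37152078 from -0.11 to 0.20 and chr19:37195731-37215756 from -0.0063 to 0.27.

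The replicate numbers did not pair the lines: the deviations of same-numbered libraries correlated at -0.0018 over pairs and 0.0056 over anchors. With the number as a replicate block, 35 pairs and 17 anchors were called, and the Btaf1 to Ide ratio was -2.61. Depth limits single pairs: 225 of 2504 pairs of the interval reached 20 counts.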
